A study of Homo sapiens with 20 samples.

Results

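Far-intergenic POL2 sites are places where RNA polymerase II (POL2) was cross-linked to DNA more than 5 kb from any annotated gene. They were mapped in the prostate cancer cell line PC-3, by chromatin immunoprecipitation followed by sequencing (ChIP-seq). The summits of 6 POL2 libraries on chromosomes 1 to 22 and X were chained into sites wherever neighbours lay 250 bp or less apart. A site was kept if it lay more than 5 kb from the body of every GENCODE gene of any type and held a summit in at least 2 of the 6 libraries. This left 939 sites, of 34426 POL2 sites in all and of 17443 in at least 2 libraries. Of 2041 sites past 5 kb from genes, the others were seen in 1 library each.

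Wild-type (WT) PC-3 cells were compared with PC-3 cells in which SLK, a gene for a serine/threonine kinase, had been knocked out (SLK-KO). The SLK-KO line is named PSD10 in the labels, which do not say whether it is 1 clone or a pool. Each genotype had 3 POL2 and 3 MYC libraries, described as biological replicates, from untreated cells grown to the same confluence. The 6 IgG and 2 Input libraries were not analysed here. The antibody is labelled anti-POL2, and no form of the polymerase is named. Chromatin was sheared to fragments of 200 to 1000 bp.

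Enhancers are DNA elements that raise transcription of genes at a distance. Many bind POL2 themselves and are transcribed into short, unstable RNAs, so POL2 away from genes can mark active enhancers, promoters of unannotated RNAs, or polymerase running on past gene ends. AP-1, a dimer of FOS and JUN family proteins, is a common enhancer-binding factor in epithelial and mesenchymal-like carcinoma cells. These kinds of site cannot be told apart from summit positions alone.

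The POL2 lists were unequal in length. WT lists held 17126, 5047 and 9925 summits in replicates 1, 2 and 3, and SLK-KO lists held 19017, 15436 and 16298. The lists carry no read counts, so sequencing depth is unknown. WT replicate 2 stood apart with the shortest list, and each genotype comparison is therefore given with lists cut to that length as well. The labelled cell type was checked at promoters, defined as sequence within 1 kb of a coding transcription start site (TSS). The epithelial keratins KRT8, KRT18 and KRT19, and CD44, VIM and CAV1, had a POL2 summit in 6 of 6 libraries. EPCAM had one in 1 WT and 3 SLK-KO libraries. KLK3, KLK2, FOLH1, the leukocyte genes PTPRC and CD3E and the liver gene ALB had none, and TMPRSS2 had one in every library. PECAM1 was met in 1 WT library, and COL1A1 in 2 libraries of each genotype.

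The best-ranked sites with a summit in all 6 libraries, and with central 50 bases met once in the genome, show what the sequence at such a summit looks like. The 3 windows below run 50 bases to each side of the median summit on the forward strand of GRCh38. Capitals mark a match to any of the motifs searched: AP-1 (TGANTCA), TEAD (GGAATG), forkhead (TGTTTAC), C/EBP (TTGCNNAA), TATA box (TATAAA), E-box (CACGTG), GC box (GGGCGG) and RUNX (TGTGGT), each on both strands.
chr2:121075198-121075298: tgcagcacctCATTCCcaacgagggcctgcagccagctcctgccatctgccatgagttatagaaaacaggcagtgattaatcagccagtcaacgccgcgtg
chr7:2874134-2874234: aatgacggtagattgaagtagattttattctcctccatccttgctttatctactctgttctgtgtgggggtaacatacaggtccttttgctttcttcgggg
chr20:53753210-53753310: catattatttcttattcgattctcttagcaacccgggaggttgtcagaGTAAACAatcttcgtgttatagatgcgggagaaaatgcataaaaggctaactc
The window on chromosome 2 holds 1 TEAD match read on the reverse strand, that on chromosome 20 a forkhead match on the reverse strand, and that on chromosome 7 holds none of these letters.

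Another 4 stretches show how AP-1 letters were placed. Each starts at the median summit and runs to 10 bases past the AP-1 match, in capitals, on the strand that puts the summit at the 5′ end. They are the 4 best-ranked sites in at least 5 libraries, with central 50 bases met once in the genome, that hold a match 100 to 150 bp from the summit. They were chosen after the AP-1 profile had been seen.
chr5:34586177-34586328 (+): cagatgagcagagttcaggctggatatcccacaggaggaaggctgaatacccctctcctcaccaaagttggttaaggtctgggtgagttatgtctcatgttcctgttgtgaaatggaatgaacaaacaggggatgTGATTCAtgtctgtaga
chr12:52147290-52147434 (+): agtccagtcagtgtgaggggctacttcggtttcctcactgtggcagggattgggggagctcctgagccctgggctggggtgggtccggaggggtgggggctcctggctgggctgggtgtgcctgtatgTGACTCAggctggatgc
chr6:73580652-73580771 (-): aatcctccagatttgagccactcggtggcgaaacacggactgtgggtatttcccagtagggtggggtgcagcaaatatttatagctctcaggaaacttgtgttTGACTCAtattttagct
chr5:98309853-98309968 (-): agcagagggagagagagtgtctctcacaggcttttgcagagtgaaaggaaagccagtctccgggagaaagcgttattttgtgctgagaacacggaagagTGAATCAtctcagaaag
The centres of the matches lay 138, 131, 106 and 102 bp from the summits. The nearest coding TSSs were those of RAI14 at 70.2 kb, KRT80 at 38.5 kb, EEF1A1 at 55.2 kb and RGMB at 458.7 kb. RAI14 encodes an actin-binding protein, KRT80 a keratin, EEF1A1 the translation elongation factor that brings tRNA to the ribosome, and RGMB a bone morphogenetic protein co-receptor.

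SLK-KO libraries held more far-intergenic sites than WT libraries. The WT libraries held 563, 108 and 261 of the 939 sites, and the SLK-KO libraries held 757, 655 and 680. The ranges did not overlap. The means were 311 ± 232 (SD, n = 3) and 697 ± 53.2 (SD, n = 3), and the ratio of geometric means was 2.77 (log2 1.47, or 0.88 without WT replicate 2). With the best 5047 summits of every list, far-intergenic sites in at least 2 libraries numbered 152. WT libraries held 86, 76 and 75 of these and SLK-KO libraries held 107, 102 and 92, a ratio of 1.27 (log2 0.34). As a share of each list, sites held 3.30, 2.15 and 2.65% of WT summits and 3.99, 4.26 and 4.19% of SLK-KO summits, a difference of 1.45 percentage points. With 3 libraries against 3, the exact two-sided permutation test cannot go below p = 0.1, and both comparisons gave that value (adjusted p = 0.108 over the 13 tests made). In these lists of equal length, the shares of summits were 1.71, 1.52 and 1.49% in WT and 2.13, 2.03 and 1.82% in SLK-KO, still without overlap but with a difference of 0.42 percentage points. The sites were kept by summits in these same 6 libraries. Of the 939, 314 were met in SLK-KO libraries only and 20 in WT libraries only. The same counts over all POL2 sites were not made, so whether this skew is particular to far-intergenic sites cannot be said. With no minimum of libraries, the share differed by 1.98 percentage points and the log2 ratio was 1.50, each with exact permutation p = 0.1. The part of list length in these differences was not tested. Fewer cells or alleles with POL2 at a site and less POL2 per cell cannot be told apart.

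**Figure D1:**
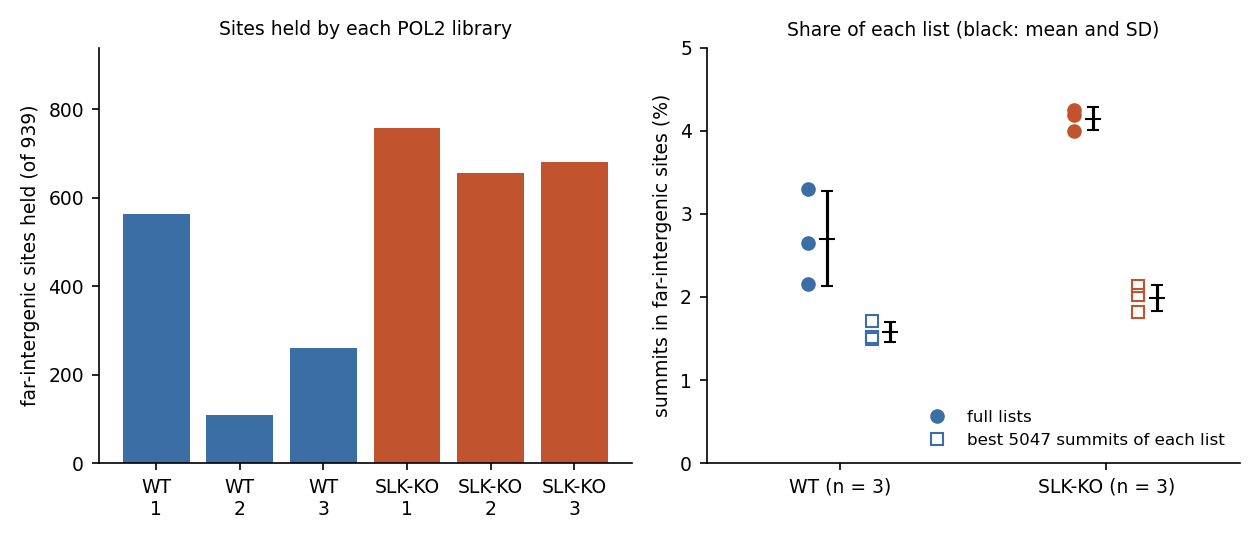
Left, number of the 939 far-intergenic POL2 sites with a summit in each POL2 library (bars, 3 WT in blue and 3 SLK-KO in orange). Right, percent of each library's summits lying in these sites, from full lists (filled) and from the best 5047 summits (open), with mean and SD in black; SLK-KO points lie above WT points in both, at 3.99 to 4.26% against 2.15 to 3.30% in full lists.

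Sites were rarely shared by every library. Of the 939 sites, 358 were met in 2 libraries, 232 in 3, 187 in 4, 108 in 5 and 54 in 6. The 54 sites in all 6 libraries are 5.75% of the far-intergenic sites, against 17.3% of all POL2 sites in at least 2 libraries, 24.4% of 10641 promoter sites and 3.39% of 3279 gene-body sites. Gene-body sites are those inside a coding gene and more than 1 kb from every TSS. In 3 SLK-KO and 0 WT libraries there were 114 sites, or 12.1%, against a background of 5.89% over all POL2 sites, 9.06% of gene-body sites and 3.96% of promoter sites. In 3 WT and 0 SLK-KO libraries there was 1 site, or 0.106%, against 0.212% over all POL2 sites. With the best 5047 summits of each library, 12 of 152 far-intergenic sites (7.89%) were in 3 SLK-KO and 0 WT libraries, against 3.87% of 6258 POL2 sites, and 4 (2.63%) were in 3 WT and 0 SLK-KO libraries, against 1.61%. With 1 library left out, a summit was asked of every remaining library of the genotype. The SLK-KO count was then 237 of 798 sites without WT replicate 1. It was 192 of 784 without SLK-KO replicate 2 and 193 of 769 without SLK-KO replicate 3. The WT count was 12 of 926 without WT replicate 2. The same shares over all POL2 sites were not counted in these settings, so these counts say nothing particular to far-intergenic sites.

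**Figure D2:**
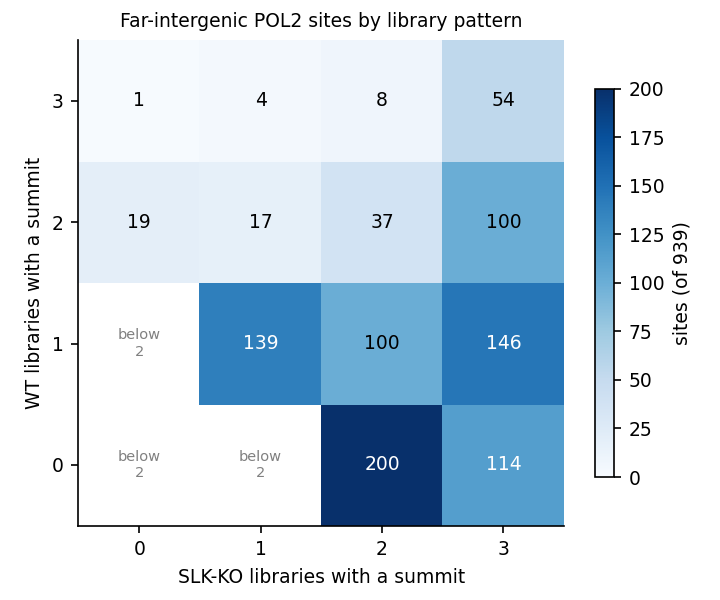
Number of far-intergenic POL2 sites by how many WT libraries (vertical axis) and how many SLK-KO libraries (horizontal axis) held a summit, with counts printed and colour from 0 to 200 sites. The largest cell is 2 SLK-KO and 0 WT libraries with 200 sites, while 19 sites were in 2 WT and 0 SLK-KO libraries. The same grid over all POL2 sites was not made.

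Among sites met in all 6 libraries, the best was chr2:121075124-121075289, with a median rank percentile of 0.33. The rank percentile is the place of a summit's score in its own list, with 0 the best and 100 the last. Its summit stood at 0.33, 1.16 and 0.63 in WT and at 0.22, 0.32 and 0.23 in SLK-KO, within the best 1.16% of every list. The site lay 6.15 kb downstream of the lncRNA ENSG00000234455 and 82.6 kb past the end of GLI2, a zinc-finger effector of Hedgehog signalling. The nearest coding TSS was that of the transcription factor TFCP2L1, 159 kb away. In RefSeq, the nearest gene was LOC105373587 at 17.3 kb.

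The second site, chr7:2874154-2874224, lay 29.8 kb upstream of GNA12, which encodes a G protein alpha subunit. Its rank percentiles were 1.09, 3.36 and 2.57 in WT and 0.64, 0.52 and 0.50 in SLK-KO, so SLK-KO summits ranked ahead of all WT summits. The site chr20:53753231-53753304 lay 143 kb upstream of ZNF217, a zinc-finger transcriptional regulator often amplified in carcinomas. Its rank percentiles were 2.12, 8.77 and 4.06 in WT and 0.62, 1.10 and 1.57 in SLK-KO.

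Another of the 8 best-ranked sites, chr8:79391230-79391319, stood at 1.49, 4.47 and 1.99 in WT and 2.24, 2.69 and 2.15 in SLK-KO, and lay 220 kb upstream of STMN2. The others described were lower in the lists. The site chr5:34585886-34586241 near RAI14 lay inside the RefSeq lncRNA LOC105374721, 339 bp from its TSS, and ranked from 4.06 to 23.95. A site 11.8 kb upstream of PTPRS, a receptor tyrosine phosphatase (chr19:5352597-5352660), ranked at 10.0, 34.4 and 22.1 in WT and at 1.95, 2.83 and 2.60 in SLK-KO. Its WT and SLK-KO ranks did not overlap. The site 6.36 kb upstream of CDCA4, a cell division cycle-associated gene (chr14:105027442-105027512), went the other way, with 2.17, 8.45 and 4.27 in WT and 10.1, 6.47 and 9.51 in SLK-KO. The ranges overlapped only through WT replicate 2, which had the shortest list. Percentiles here and above also depend on list length, which ran from 5047 to 19017 summits. These ranks chose the sites and are given as a description.

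The best-ranked sites of SLK-KO libraries alone stood lower. A site 262 kb downstream of the ciliary dynein gene DNAH5 (chr5:13428083-13428156) ranked at 17.3, 20.2 and 24.4 in SLK-KO replicates 1 to 3. A site 26.5 kb downstream of PTGER2, the prostaglandin E receptor EP2 gene (chr14:52355120-52355187), ranked at 17.1, 21.8 and 29.3. A site 15.5 kb from the processed pseudogene MFFP3 (chrX:45715254-45715297) ranked at 28.3, 23.5 and 25.6, but a summit of another site lay 297 bp away in a library without it, so its absence there turns on the chaining distance. The fourth lay 8.99 kb upstream of OLFM2, an olfactomedin family gene (chr19:9945505-9945549), and also held MYC summits. The only site in 3 WT and 0 SLK-KO libraries was chr7:155230185-155230210, 67.6 kb upstream of INSIG1, an endoplasmic reticulum protein that holds back sterol synthesis. It ranked at 22.9, 44.5 and 24.97 in WT.

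Within a library, far-intergenic summits ranked behind promoter summits and ahead of gene-body summits. The median rank percentile of far-intergenic summits was 54.9, 61.8 and 65.9 in WT and 51.1, 56.7 and 57.3 in SLK-KO. Gene-body summits stood at 61.9, 70.7 and 69.9 in WT and 58.4, 65.8 and 66.0 in SLK-KO, behind in 6 of 6 libraries (far-intergenic minus gene-body −7.47 ± 1.91, SD, n = 6). Promoter summits stood at 28.8 to 40.8, ahead in 6 of 6 libraries by a mean of 23.9 ± 2.18 (SD, n = 6). Both differences gave p = 0.031 in an exact two-sided sign-flip permutation test over the 6 libraries, the smallest it allows, and an adjusted p = 0.0508, which misses 0.05. The libraries share sites, so these p-values speak of these 6 libraries. In lists cut to 5047 summits, the gap to gene bodies was −1.43 (exact sign-flip p = 0.25). Percentiles there were still those of the full lists, so the cut by itself narrows their range in the longer lists. Far-intergenic summits were then behind in WT replicate 1 (19.4 against 19.1). They were also behind in SLK-KO replicates 1 (16.9 against 16.2) and 2 (21.3 against 19.9), and ahead in the other libraries.

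Far-intergenic summits were met again in another library more often than gene-body summits. Before the rule of at least 2 libraries, 68.2, 82.4 and 78.4% of WT and 66.8, 78.9 and 77.8% of SLK-KO far-intergenic summits lay in a site met in another library. For gene-body summits the values were 46.7, 56.6 and 66.8% in WT and 50.5, 63.0 and 64.1% in SLK-KO. The difference was 17.5 ± 5.26 percentage points (SD, n = 6), in the same direction in 6 of 6 libraries (exact sign-flip p = 0.031, adjusted p = 0.0508). For promoter summits the shares ran from 87.4 to 93.1%.

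**Figure D3:**
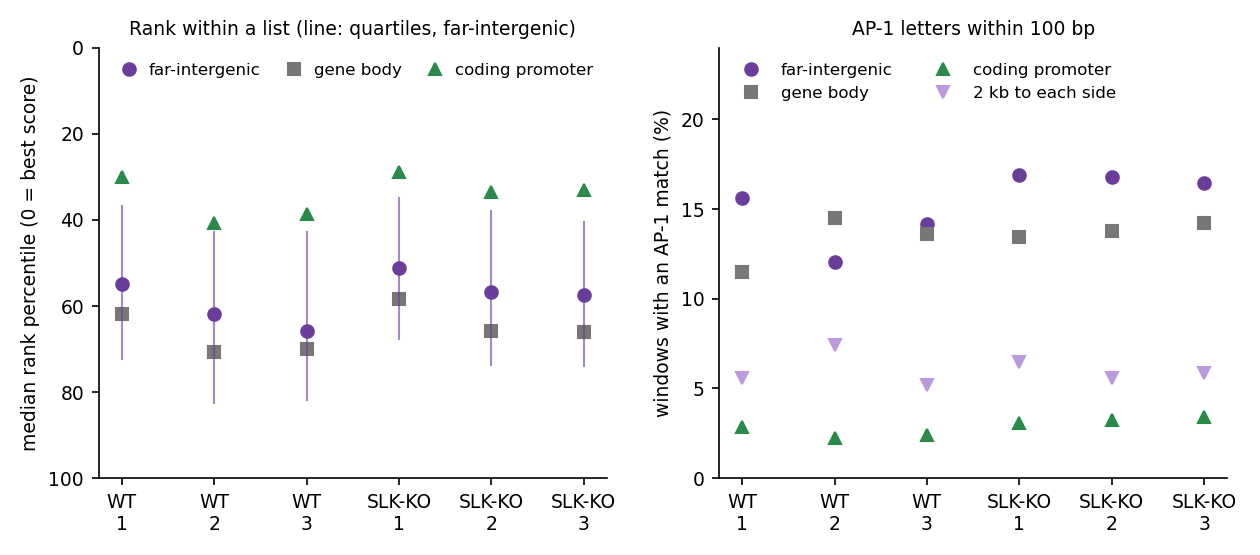
Left, median rank percentile in each POL2 library (0, at the top, is the best score) for far-intergenic, gene-body and coding promoter summits, with a line for the quartiles of far-intergenic summits. Right, percent of windows within 100 bp of a summit that hold AP-1 letters, with the windows 2 kb to each side of far-intergenic summits; promoters lie between 2.26 and 3.39% and far-intergenic summits between 12.04 and 16.9%.

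AP-1 letters were more common at far-intergenic summits than beside them. Within 100 bp of the summit, TGANTCA was found at 15.6, 12.04 and 14.2% of WT and 16.9, 16.8 and 16.5% of SLK-KO far-intergenic summits, a mean of 15.3 ± 1.91% (SD, n = 6). Windows 2 kb to each side held it at 6.02 ± 0.81%, and promoter summits at 2.88 ± 0.46%. The share was higher than at the flanks by 9.32 points and than at promoters by 12.46 points, each in 6 of 6 libraries (exact sign-flip p = 0.031, adjusted p = 0.0508). The same letters in reverse order, ACTNAGT, were at 5.36% of far-intergenic summits, 4.77% of flanks and 1.84% of promoter summits. The reversed letters were thus also more common than at promoters, by 3.53 points (exact sign-flip p = 0.031). Gene-body summits held AP-1 letters at 13.5 ± 1.07%, lower in 5 of 6 libraries with WT replicate 2 the exception, and the difference of 1.82 points was not larger than its spread (SD 2.44, exact sign-flip p = 0.125, adjusted p = 0.125). With the best 5047 summits of each list, it was −4.02 points.

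AP-1 shares were higher in every SLK-KO library than in any WT library, at 16.7 ± 0.23% against 13.9 ± 1.81% (SD, n = 3 each). The difference of 2.78 points gave p = 0.1 in the exact permutation test, the smallest possible (adjusted p = 0.108). It was 1.85 points without WT replicate 2. With the best 5047 summits of each list, the shares were 8.14, 10.5 and 10.7% in WT and 14.02, 17.6 and 10.9% in SLK-KO, a difference of 4.40 points. The reversed letters were higher in SLK-KO by 1.00 point, with overlap. Promoter summits, at 2.26 to 2.84% in WT and 3.09 to 3.39% in SLK-KO, also held AP-1 letters without overlap between genotypes. At gene-body summits the genotypes overlapped, with 11.5 to 14.5% in WT and 13.4 to 14.2% in SLK-KO. For far-intergenic summits, the groups overlapped when the window was 50 or 200 bp, with differences of 0.63 and 3.56 points. They also overlapped when sites had to lie more than 20 kb from genes, with 1.05 points. Counted by site, within 100 bp of the median summit, the 314 sites lacking any WT summit held AP-1 letters at 13.1%. The 605 sites shared by the genotypes held them at 17.0%, and the 20 sites lacking any SLK-KO summit at 10%. The higher SLK-KO shares were thus not matched by a higher share at sites lacking WT summits, which was not tested.

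The AP-1 letters did not peak at the summit itself. Around the median summits of the 939 sites, matches numbered 57 in the first 50 bp to each side, 104 from 50 to 100 bp, 148 from 100 to 150 bp and 91 from 150 to 200 bp. Per kb of sequence this was 0.61, 1.11, 1.58 and 0.97, and from 500 to 1000 bp the density ran between 0.34 and 0.49. In the libraries' own summits, the density from 100 to 150 bp exceeded that from 0 to 50 bp by 0.86, 0.36 and 0.68 per kb in WT and by 0.73, 0.99 and 0.79 per kb in SLK-KO. The mean difference was 0.74 ± 0.21 per kb (SD, n = 6; exact sign-flip p = 0.031, adjusted p = 0.0508). It was tested after the profile had been seen, on the same data. Gene-body sites were also densest from 100 to 150 bp, at 0.96 per kb, and promoter sites stayed at 0.16 to 0.27 per kb throughout. A window of 50 bp therefore misses most of the matches: the difference to the flanks was 2.57 points within 50 bp and 22.7 points within 200 bp.

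**Figure D4:**
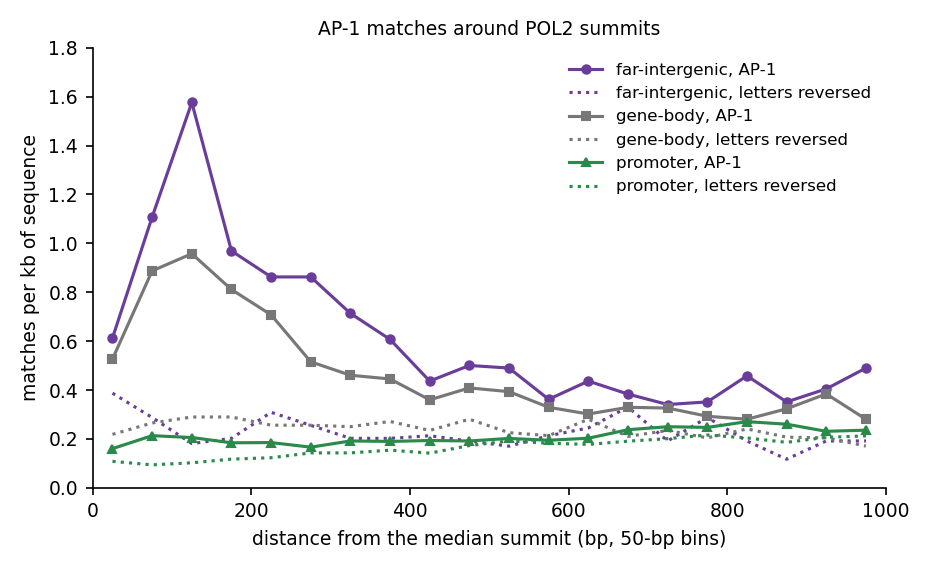
Matches per kb of sequence to AP-1 letters (solid lines) and to the same letters reversed (dotted lines) in 50-bp bins of distance from the median summit, for far-intergenic, gene-body and promoter POL2 sites. The far-intergenic line rises from 0.61 at the summit to 1.58 at 100 to 150 bp and then declines, and the dotted lines stay below 0.4.

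The other motifs were compared with the flanks without a test. The GC box, bound by SP and KLF factors, was at 14.4 ± 1.62% of far-intergenic summits, 4.16 ± 1.13% of flanks and 51.9 ± 0.85% of promoter summits (SD, n = 6). The TEAD letters, bound by the partners of YAP, were at 15.5 ± 2.86% of summits and 11.5 ± 1.50% of flanks, with WT replicate 2 lower at the summits (10.2%) than at the flanks (14.4%). Forkhead letters were at 4.05 ± 0.98 and 2.37 ± 0.54%, and CTCF letters at 2.22 ± 0.81 and 0.70 ± 0.17%. Gene-body summits held the GC box at 8.74 ± 1.07%, TEAD letters at 14.6 ± 0.91%, forkhead letters at 3.34 ± 0.73% and CTCF letters at 1.20 ± 0.15%. The TEAD and forkhead shares are thus close to those of gene bodies. RUNX, C/EBP, TATA box and E-box letters were less common at summits than at flanks on average. The E-box, the site bound by MYC and MAX, was at 1.84 ± 0.54% of summits and 3.08 ± 0.38% of flanks.

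Far-intergenic summits had a GC content between those of gene bodies and promoters. The mean over libraries was 51.2 ± 0.74% (SD, n = 6), above gene-body summits by 2.25 points in 6 of 6 libraries (exact sign-flip p = 0.031, adjusted p = 0.0508). Promoter summits ran from 65.7 to 66.7%. The difference to gene bodies reversed, to −0.71 points (exact p = 0.125), for sites more than 20 kb from genes. CpG islands are GC-rich stretches found at most human promoters. Windows with over 50% GC and a CpG observed over expected ratio over 0.6 made up 128 of the 939 sites, or 13.6%. Their share was 9.50% of the sites in 2 libraries, 11.2% in 3, 19.3% in 4, 19.4% in 5 and 20.4% in 6. AP-1 letters were at 8 of these 128 sites (6.25%) and at 138 of the 811 others (17.0%).

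MYC summits were met at few far-intergenic POL2 sites, fewer than at promoters and more than in gene bodies by share. MYC is a transcription factor that binds E-boxes with MAX, mostly at promoters. A MYC summit lay within 250 bp of 3, 2 and 2 of the 939 sites in the WT MYC libraries and of 23, 27 and 10 in the SLK-KO MYC libraries. The shares were 0.25 ± 0.06% and 2.13 ± 0.95% (SD, n = 3 each), with no overlap between genotypes and a difference of 1.88 points (exact permutation p = 0.1, the smallest possible; adjusted p = 0.108). The MYC lists differed in length in the same direction, with at most 365 summits in WT and 988 to 1420 in SLK-KO, and the genotypes overlapped when POL2 lists and MYC lists were each cut to equal length (0.66 points, exact p = 0.3). Moving the MYC summits by 10 kb left 1, 0 and 1 sites in WT and 3, 3 and 2 in SLK-KO. The 95% Wilson intervals ran from 0.058 to 0.94% over WT libraries and from 0.58 to 4.15% over SLK-KO libraries, for counting error only. Gene-body POL2 sites had a MYC summit at 0.12, 0.061 and 0.18% in WT and 1.34, 1.25 and 0.91% in SLK-KO, below far-intergenic sites in 6 of 6 libraries, a difference that was not tested. Promoter POL2 sites had one at 2.07, 1.04 and 1.44% in WT and 6.09, 7.09 and 5.10% in SLK-KO. Far-intergenic sites were lower than promoter sites in 6 of 6 libraries, by 2.62 ± 1.52 points (SD, n = 6; exact sign-flip p = 0.031, adjusted p = 0.0508).

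In all, 37 far-intergenic sites had a MYC summit in any library. E-box letters were in 3 of them (8.11%), against 20 of the 939 sites (2.13%), and 13 (35.1%) were CpG-island-like. The site with MYC in the most libraries, 1 WT and 3 SLK-KO, was chr10:33134384-33134415, 51.3 kb from the TSS of NRP1, a co-receptor for semaphorins and VEGF. Its POL2 summit ranked at 56.4 in WT replicate 1, was not met in the other WT libraries, and ranked at 7.75, 11.9 and 9.41 in SLK-KO. A site on chromosome 8, 41.4 kb upstream of the RAB regulator DENND3 (chr8:141075847-141075913), had MYC in the same number of libraries and POL2 in 5. The OLFM2 site had MYC in 3 SLK-KO libraries. The site chr2:231613967-231614225, 21.3 kb from the TSS of TEX44, had POL2 in 6 libraries, a GC content of 74.6% and MYC in 1 WT and 2 SLK-KO libraries. A site 17.0 kb from the TSS of GNGT2 (chr17:49191870-49191953) had MYC in 3 SLK-KO libraries and lay 575 bp from the tRNA gene TRQ-TTG1-1, which RefSeq lists.

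That tRNA gene points to annotation outside GENCODE genes. tRNA genes are transcribed by RNA polymerase III, and POL2 is known to gather near active ones. Of the 939 sites, 12 (1.28%) lay within 1 kb of a RefSeq tRNA gene, against 69 (0.396%) of all 17443 POL2 sites in at least 2 libraries. The best-ranked was chr1:248873653-248873691, 164 bp from the leucine tRNA gene TRL-CAA4-1, in 5 libraries. The site chr2:42810070-42810408 lay 128 bp from the isoleucine tRNA gene TRI-TAT2-1 and was met in all 6. Of the 12, 2 had a MYC summit.

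RefSeq genes also covered part of the set. Inside a RefSeq gene lay 148 sites (15.8%), of which 128 were in lncRNA genes only and 17 in coding genes only. Of the 859 sites outside chromosome 8, where RefSeq start sites were read, 37 lay within 1 kb of a RefSeq TSS. The nearest GENCODE gene was coding for 360 sites, a lncRNA for 352 and a processed pseudogene for 138. The central 50 bases occurred more than once in the genome at 25 sites (2.66%), against 1.35% of all POL2 sites in at least 2 libraries.

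The sites lay close to genes for sequence of this kind. The median distance to the nearest gene body was 15.4 kb, from 5.02 to 406 kb, whereas the median over the 918 Mb of sequence past 5 kb from genes was 32.5 kb. From 5 to 10 kb lay 31.1% of the sites and 15.5% of that sequence, and from 10 to 20 kb 30.2 and 19.7%. Past 100 kb lay 4.05% of the sites and 19.9% of the sequence. The nearest gene had its 3′ end toward the site for 52.3% of the sites and 52.3% of the sequence. By distance, the shares were 54.5 against 52.1% from 5 to 10 kb, 48.9 against 52.0% from 10 to 20 kb, 52.5 against 52.3% from 20 to 50 kb, 62.1 against 52.2% from 50 to 100 kb (87 sites) and 36.8 against 52.6% past 100 kb (38 sites), untested. The nearest to the limit were 5.015 kb from CYP27C1 and 5.024 kb from SYT14, and just outside it, at 4.980 and 4.978 kb, were sites by WNT2 and the lncRNA ENSG00000289936.

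**Figure D5:**
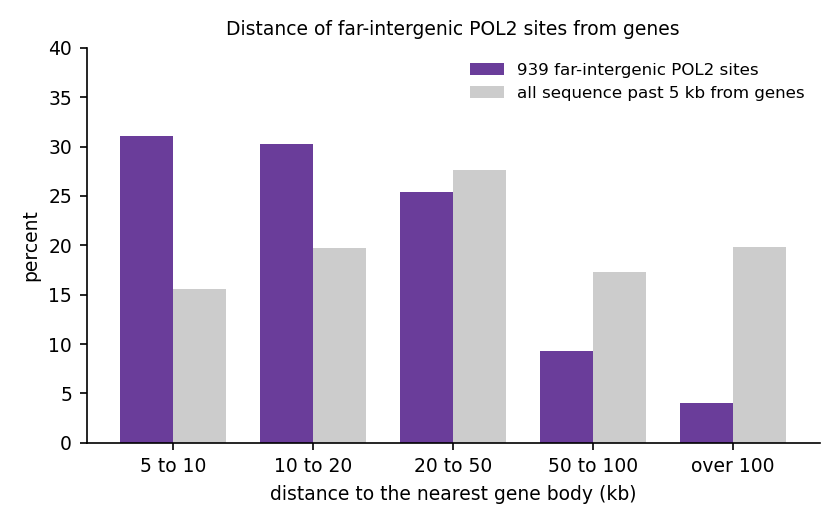
Percent of the 939 far-intergenic POL2 sites (purple) and of all sequence more than 5 kb from genes (grey) by distance to the nearest gene body in kb. The share of sites exceeds that of sequence up to 20 kb, with 31.1 against 15.5% from 5 to 10 kb, and is lower past that, at 4.05 against 19.9% over 100 kb.

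The farthest site, chr3:104909247-104909338, lay 406 kb from the processed pseudogene EZRP1 and 458 kb from ALCAM, a cell adhesion molecule gene, was met in 3 SLK-KO and 0 WT libraries, and lay inside the RefSeq gene LOC107986108, 680 bp from its TSS. A site 231 kb from MIR5702, whose nearest coding gene is the insulin receptor substrate gene IRS1 (chr2:226427638-226427713), was met in 2 WT libraries. A site 226 kb from RPS20P25, whose nearest coding gene is the co-repressor gene TLE1 (chr9:81184069-81184149), was met in 3 SLK-KO and 0 WT libraries. None of these 3 sites held AP-1 letters.

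The coding gene nearest to a site often had POL2 at its own promoter in the same library. This held for 65.0, 46.3 and 61.3% of the sites held by WT libraries and 67.2, 67.9 and 63.8% of those held by SLK-KO libraries. Over all coding genes the shares were 47.5, 19.1 and 35.4% in WT and 49.1, 45.3 and 47.3% in SLK-KO, lower in 6 of 6 libraries. The difference was not tested, and genes near each other are not independent.

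The nearest coding TSS was that of 635 of 19962 coding genes (3.18%). Of 8 genes with long-range regulation known in prostate, 3 were the nearest of a site: TMPRSS2, an androgen-regulated protease gene, for 4 sites, and the transcription factor genes HOXB13 and SOX9 for 3 sites each. Of 22 YAP and TEAD target genes, 6 were the nearest of a site. CCN1, a matricellular protein gene, had 3 sites 26.3 to 47.8 kb from its TSS, and ANKRD1, GADD45A, NT5E, ASAP1 and TGFB2 had 1 each. Among adhesion and matrix genes, the cadherin CDH2 was the nearest of 2 sites and the integrin ITGA3 of 1. Of 12 AP-1 genes only JUND was the nearest of a site. These lists are short, and their shares are a description.

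Part of the sites lay in clusters. Chained over gaps of up to 0.0125 Mb, the 939 sites fell into 717 clusters, of which 579 held 1 site, 97 held 2 and 41 held 3 or more. In clusters of 2 or more lay 360 sites, or 38.3%. Other POL2 sites were not chained in this way, so there is no share to set beside it. The largest cluster, chr8:79326463-79391319, held 26 sites over 64.9 kb, between 11.5 kb and 76.3 kb from the lncRNA ENSG00000253659 and 220 to 285 kb from the TSS of STMN2, a neuronal regulator of microtubules. WT libraries held 17, 2 and 7 of these sites and SLK-KO libraries held 14, 12 and 15, and WT replicate 1 held the most. AP-1 letters were at 1 of the 26. The next clusters held 6 sites each: 1 of 13.7 kb near RPE65, a retinal isomerase gene (chr1:68395495-68409232), where WT libraries held 5, 2 and 2 sites and SLK-KO libraries held 2, 2 and 3, and 1 of 26.3 kb near BCAS1 (chr20:53900801-53927057), where WT held 5, 0 and 0 and SLK-KO 5, 3 and 3. A further 6 lay in 4.43 kb near ABHD16B (chr20:63850746-63855172).

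The density of sites per Mb of sequence past 5 kb from genes differed between chromosomes. It was highest on chromosomes 19 (2.20 per Mb), 20 (2.11) and 17 (1.98), and lowest on X (0.40), 4 (0.45) and 9 (0.45). Chromosome 8 stood at 1.83 per Mb with 80 sites and at 1.23 per Mb without the cluster near STMN2. Over all POL2 sites in at least 2 libraries, chromosomes 19, 17 and 20 were also the densest, with 17.0, 11.7 and 10.4 per Mb of chromosome. Copy number, which varies between chromosomes in cancer cell lines and was not measured here, could not be set beside these densities.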

How the data were processed

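ChIP-seq summit lists of 12 libraries were used, 6 for POL2 and 6 for MYC. Per the submitters' processing notes and the series text, paired-end reads of 50 bp were trimmed with Trim Galore 0.6.7 and processed with nf-core/chipseq 2.1.0 against GRCh38.p14, with BWA 0.7.18-r1243 and MACS3 3.0.1 named among the tools. The control library of each call and the caller's options are not given in the sources used here. The authors deposited 1-bp summits per library with a score read as −log10 of the q-value, which served here to order or filter the summits of the same list. Depth is unknown, since no read counts accompany the lists.

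Genes and start sites came from GENCODE 44, other genes from RefSeq tables of the same build, and sequences from the GRCh38 reference. Where a site had several summits in a library, the best-scored was used. Shares and medians were computed per library (Python 3.11.15, pandas 2.3.3, pysam 0.24.0) and compared by exact permutation of genotype labels, or by sign flips within libraries, with Benjamini-Hochberg adjustment over 13 tests. The steps were tested on simulated lists. Whether the replicate numbers pair the libraries was checked by correlating deviations from genotype means over the sites. The correlations of same-numbered libraries were 0.059, 0.047 and 0.020, below the 0.1 required, so no block was used. Those of differently numbered libraries ran from −0.061 to 0.028.

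Named sites were the 8 best-ranked in all 6 libraries, up to 4 best-ranked in each genotype-only pattern, the 3 farthest, the 3 largest clusters, 5 with MYC in the most libraries and those at the distance limit. Some of these items and of the listed genes are not reported here. The 4 AP-1 stretches, the tRNA and RefSeq counts and the ABHD16B cluster were added after values were seen. The sites, gene lists and tests were chosen with earlier results of these data known.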

Additional observations from a re-analysis of the deposited data

Results flagged for a closer look

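The POL2 lists also held 270 summits on sequences other than chromosomes 1 to 22 and X, which no comparison above used. They were 48, 32 and 38 in the WT libraries and 55, 47 and 50 in the SLK-KO libraries, and no control library was analysed here to set beside them.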

How the results depend on the processing

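The 13 tests were repeated under 241 alternatives. Of these, 184 gave the same direction and side of an unadjusted 0.05, 53 kept the direction but missed 0.05, and 4 reversed. The genotype comparisons cannot reach 0.05 in an exact permutation test, so they counted as the same whenever the direction held. This included AP-1 past 20 kb and MYC with equal lists, where the genotypes overlapped. The reversed AP-1 letters and the moved MYC summits, which are controls, were also among the 241. The count of 184 is therefore no measure of robustness. Of the 53 misses, most left out 1 library, since 5 libraries cannot give a sign-flip p below 0.0625. Over these, the ranges were −8.11 to −7.02 (rank against gene bodies), 23.1 to 24.2 (rank against promoters), 1.04 to 2.69, 12.1 to 13.05 and 9.04 to 10.3 (AP-1 against gene bodies, promoters and flanks), 0.69 to 0.82 per kb (AP-1 displacement), 1.99 to 2.46 (GC), −2.97 to −2.30 (MYC against promoters), 16.2 to 20.1 (met again), 1.10 to 1.59 (SLK-KO minus WT share), 0.88 to 2.03 (log2 ratio of sites held), 1.85 to 3.98 (AP-1 by genotype) and 1.51 to 2.41 (MYC by genotype). The far-intergenic count ran from 711 to 926, the 3 SLK-KO and 0 WT count from 116 to 237 and its converse from 2 to 12.

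AP-1 against gene bodies reversed to −0.095 with chaining at 100 bp and to −4.02 with lists of equal length, GC to −0.71 past 20 kb, and MYC against promoters to 0.055 with MYC summits moved by 10 kb. The rank gap to gene bodies was −5.32 past 20 kb, −1.55 with scores of at least 5 and −1.43 with equal lists. With the score limit and with equal lists, percentiles were still those of the full lists, so their range was narrower. AP-1 against flanks was 2.57 within 50 bp and 0.60 with reversed letters. The number of sites was 1560 past 1 kb and 363 past 20 kb from genes, 581 in at least 3 libraries, 590 with scores of at least 5, 152 with equal lists and 2041 with no minimum of libraries. The 3 SLK-KO and 0 WT count was 54 past 20 kb and 12 with equal lists. Its converse was 2 with chaining at 100 bp, 2 past 1 kb, 0 past 20 kb and 4 with equal lists. For these changes the cause was not tested. Leaving out sites whose central 50 bases are repeated, having no minimum of libraries and the 200 bp window were chosen after seeing the data.

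With the replicate number as a block, the differences between genotypes keep their values of 1.45 (share), 1.47 (log2 ratio), 2.78 (AP-1) and 1.88 (MYC), with exact p = 0.25, the smallest that 3 pairs allow. Leaving out repeat sequence was not run, because the genome used carries no repeat marks.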

Other observations

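The share of far-intergenic sites with AP-1 letters within 100 bp of the median summit varied with the library pattern. It was 10 of 114 (8.77%) in 3 SLK-KO and 0 WT libraries, 31 of 200 (15.5%) in 2 SLK-KO and 0 WT libraries, 26 of 146 (17.8%) in 3 SLK-KO and 1 WT library, 22 of 100 (22.0%) in 3 SLK-KO and 2 WT libraries, and 7 of 54 (12.96%) in all 6. It was 18 of 139 (12.9%) in 1 library of each genotype. Pooled, it was 41 of 314 (13.1%) for sites in 0 WT libraries and 103 of 605 (17.0%) for sites met in both genotypes. These counts were not tested.

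Several coding genes were the nearest of many sites without being near them. ALCAM had 8 sites 458 to 1025 kb from its TSS, GPC5, a glypican gene, had 8 sites 530 to 702 kb away, and DIPK2B had 7 sites 279 to 603 kb away. Closer at hand, the heparan sulfatase gene SULF2 had 7 sites 5.66 to 135 kb away and the dual-specificity phosphatase gene DUSP5 had 6 sites 14.5 to 89.7 kb away.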
